A study of Mus musculus with 24 samples.

Results

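The transcripts described here are 10 genes that mark cells other than the sorted progenitors: 5 macrophage and leukocyte genes (Ptprc, Laptm5, Lyz2, Adgre1 and Csf1r) and 5 blood endothelial genes (Pecam1, Cdh5, Emcn, Cldn5 and Sox17). They were taken by symbol, and all 10 were found among the 27179 genes of the deposited table. The set was chosen with earlier results of these data known. The libraries were bulk RNA-seq of PDGFRb+ cells sorted by flow cytometry from white adipose tissue of C57BL/6 mice, with no treatment or engineered allele named in the labels. Subpopulations named APC and FIP came from the gonadal depot, those named DPP4_neg APC and DPP4_pos APC from the inguinal depot. Each was sorted from females (F) and males (M), which makes 8 groups of 3 libraries: F_APC, F_FIP, M_APC and M_FIP from gonadal tissue, and F_DPP4_neg, F_DPP4_pos, M_DPP4_neg and M_DPP4_pos from inguinal tissue. Ages, the gates that separated FIP from APC, and whether replicates or pools came from separate animals are not given in the sources used here, so the p-values rest on library-to-library spread alone, and that spread may be technical.

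White adipose tissue is a mixture in which PDGFRb marks stromal progenitors and the mural cells that wrap capillaries, while macrophages and endothelial cells form separate lineages. Resident adipose macrophages carry the CSF1 receptor and often lie beside capillaries, and the capillary endothelium is held together by adherens and tight junction proteins. Transcripts of such cells in a sorted progenitor library are therefore read as traces, and in bulk RNA a smaller number of cells of a type and less RNA per cell cannot be told apart.

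Positions are on GRCm38. On chromosome 1 are Ptprc (138062859 to 138175756, minus strand), which encodes the pan-leukocyte phosphatase CD45, and Sox17 (4490928 to 4497426, minus strand), a transcription factor of arterial endothelium. Laptm5 (chromosome 4, 130912890 to 130936148, plus strand) encodes a lysosomal membrane protein of blood cells, and Lyz2 (chromosome 10, 117277541 to 117282272, minus strand) the lysozyme of macrophages and other myeloid cells. Adgre1 (chromosome 17, 57358581 to 57483529, plus strand) encodes the macrophage antigen F4/80, and Csf1r the receptor for the macrophage growth factor CSF1. Pecam1 (chromosome 11, 106654213 to 106715281, minus strand) encodes CD31, and Cdh5 (chromosome 8, 104101613 to 104144504, plus strand) VE-cadherin of endothelial adherens junctions. Emcn (chromosome 3, 137341062 to 137431069, plus strand) encodes the sialomucin endomucin of capillaries and veins, and Cldn5 (chromosome 16, 18776847 to 18778262, plus strand, 1 exon) a claudin of endothelial tight junctions.

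ETS family transcription factors, PU.1 in macrophages and ERG in endothelium among them, bind sites built on the letters GGAA, so promoter windows are shown for the members as the regulatory sequence that the sets could share. RefSeq windows (GRCm38.p6) matched 5 of the 10 genes. The 250 bases before the listed start are printed for 1 macrophage gene and 2 endothelial genes, a choice made after their values were seen. Capitals mark AGGAAG or its reverse complement CTTCCT, searched on both strands. The shorter GGAA, which lies inside it, was in 93.4% of all windows of this length, and the longer GAGGAAGT, which holds AGGAAG, in 2.44%. The windows are chr10:117282273-117282522 (minus strand) for Lyz2, chr3:137340828-137341077 (plus strand) for Emcn and chr16:18776597-18776846 (plus strand) for Cldn5.
Lyz2: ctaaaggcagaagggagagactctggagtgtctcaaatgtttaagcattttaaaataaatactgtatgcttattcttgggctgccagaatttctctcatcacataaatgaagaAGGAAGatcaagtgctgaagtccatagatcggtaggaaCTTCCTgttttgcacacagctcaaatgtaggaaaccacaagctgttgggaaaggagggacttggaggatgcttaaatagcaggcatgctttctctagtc
Emcn: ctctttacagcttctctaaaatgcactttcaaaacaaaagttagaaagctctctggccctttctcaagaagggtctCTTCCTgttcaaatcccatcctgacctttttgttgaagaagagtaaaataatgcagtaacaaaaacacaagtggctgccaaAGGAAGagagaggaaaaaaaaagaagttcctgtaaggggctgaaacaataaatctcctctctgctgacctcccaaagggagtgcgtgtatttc
Cldn5: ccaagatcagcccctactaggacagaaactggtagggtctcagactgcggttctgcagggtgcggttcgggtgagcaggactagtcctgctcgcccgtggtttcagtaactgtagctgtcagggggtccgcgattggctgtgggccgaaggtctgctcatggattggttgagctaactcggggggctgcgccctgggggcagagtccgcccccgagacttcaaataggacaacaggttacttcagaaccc
The Lyz2 and Emcn windows each held 2 matches, beginning -137 and -99 bases from the listed start in Lyz2 and -174 and -93 in Emcn. The Cldn5 window held 0, and also 0 of the shorter GGAA. Of the windows not printed, those of the 2 listed Ptprc starts held 3 and 1 matches to AGGAAG and that of Laptm5 held 2. The Ptprc windows overlap, and the match at -236 from listed start 2 is the same site as that at -57 from listed start 1. Among all 32851 windows of this length 9686 (29.5%) held at least 1 match, so a match is a common feature and says nothing about binding.

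The 10 genes took a small part of the reads of each library. Recovered reads per library ranged from 9152470 to 18221692, and the 5 macrophage genes together took 67 to 921 of them (4.25 to 58.7 RPM, reads scaled to the library total), the 5 endothelial genes 190 to 2419 (10.5 to 170.9 RPM). On a scale per length (RPKM, reads scaled to exon length and library total), the mean level over the 24 libraries was 0.120 for Ptprc, 0.353 for Adgre1, 0.738 for Laptm5, 0.768 for Csf1r and 7.30 for Lyz2. Endothelial levels on that scale were 0.471 for Emcn, 0.784 for Sox17, 3.09 for Pecam1, 4.81 for Cdh5 and 15.3 for Cldn5. By mean normalised count Pecam1, Cdh5 and Cldn5 stood at percentiles 54.8, 55.7 and 57.4 of the genes tested. The other members stood between 13.1 (Adgre1) and 42.1 (Lyz2). Pdgfrb, the gene of the sorted antigen, lay between 22.95 and 94.5 RPKM, and the progenitor gene Pdgfra between 37.6 and 149. Cldn5 reached into both ranges, with 44.1 RPKM in its highest library. The precision is limited by these counts: Ptprc had 8 reads in all over the 3 F_FIP libraries, of which 1 had 0 reads, a count that allows up to 3.

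All 10 genes passed the filter on low values, which kept genes that reached 10 in 3 libraries or more. Levels below are normalised counts, the authors' reads divided by 1 size factor per library. Fold changes, given with standard errors, are differences of log2(value + 1), a scale that shrinks the changes of low genes. Calls are from limma with 1 mean per group, at an adjusted p below 0.05 (Benjamini-Hochberg, 14517 genes tested). Comparisons that use the same group share its libraries. Where groups are said not to overlap, the share of all genes without overlap was not counted, so the statement only describes the values.

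**Figure D1:**
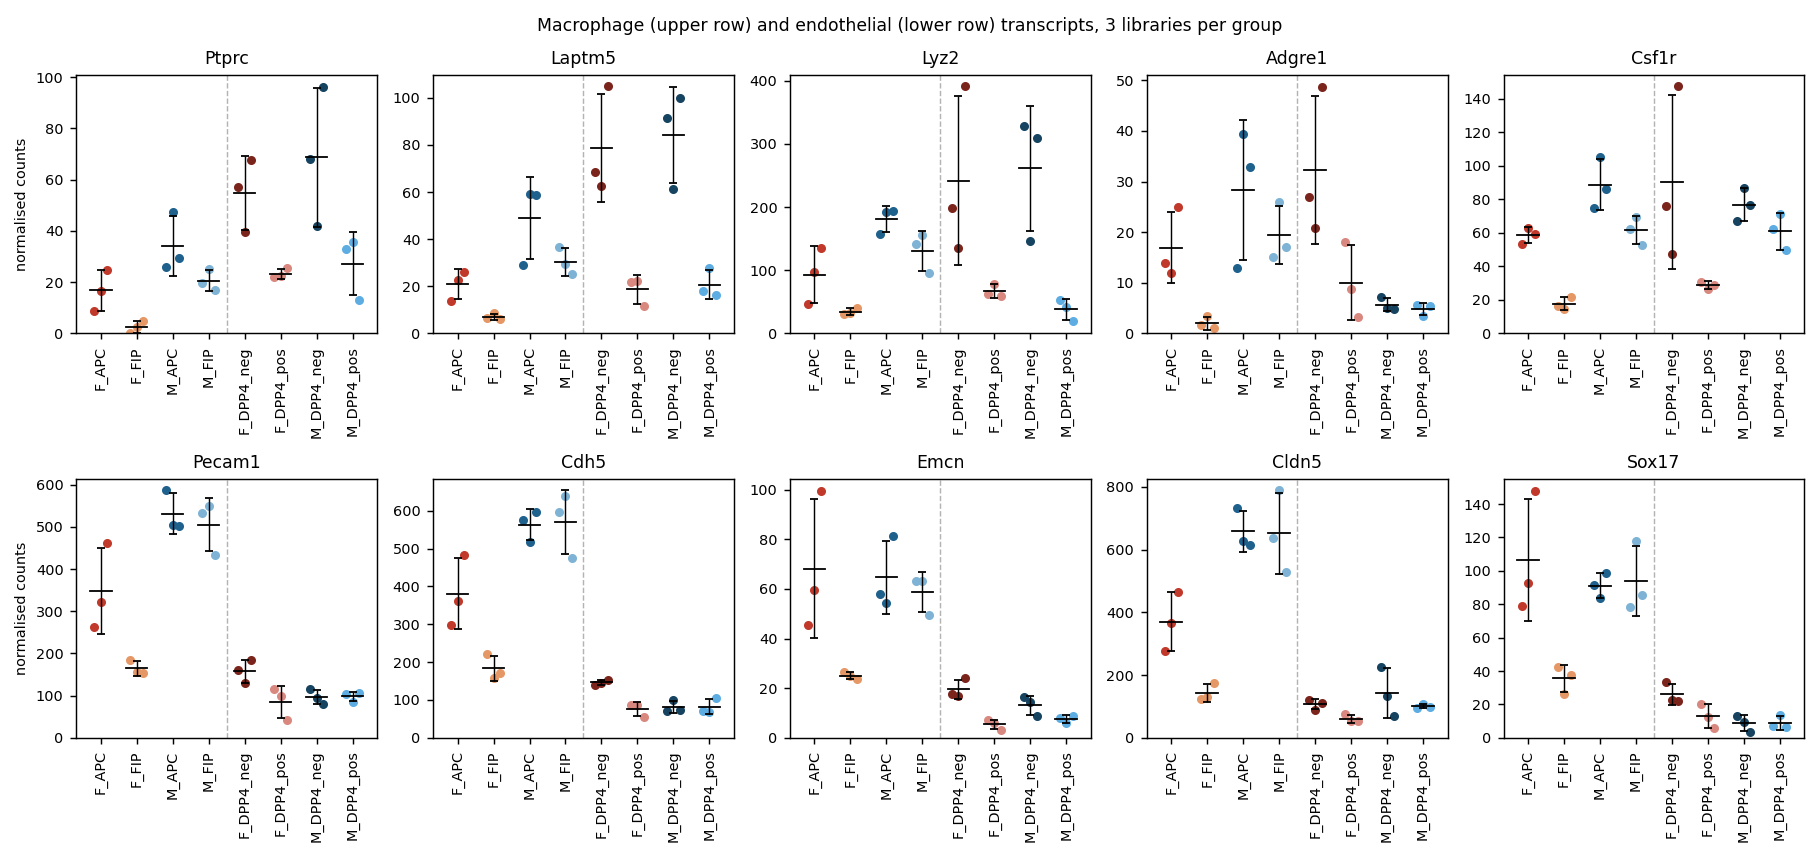
Normalised counts (vertical axis, linear from 0) of the 5 macrophage genes (upper row) and the 5 endothelial genes (lower row) in the 8 groups; points are the 3 libraries, the bar is their mean and the whisker 1 SD, and the dashed line parts gonadal from inguinal groups. All 5 endothelial genes are highest in F_APC, M_APC and M_FIP, whereas Ptprc, Laptm5 and Lyz2 are highest in the DPP4_neg groups.

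The endothelial genes were on the gonadal side of both depot comparisons. All 5 were higher in APC than in DPP4_neg cells and in FIP than in DPP4_pos cells, in females and in males, with no overlap between the libraries of the groups. Cdh5 stood at 298, 361.5 and 483.9 normalised counts in F_APC and at 139.8, 145.5 and 153.6 in F_DPP4_neg. In males it stood at 574.2, 517.0 and 596.2 in M_APC and at 71.0, 101.1 and 72.8 in M_DPP4_neg. The lowest male APC library was thus above every inguinal library, and the difference was 1.35 ± 0.19 in females (adjusted p = 1.42e-06) and 2.79 ± 0.19 in males (adjusted p = 2.94e-12). Over the 5 genes the log2 differences ran from 1.11 (Pecam1) to 1.97 (Sox17) for F_APC against F_DPP4_neg, where 26.8% of all genes tested were called higher. They ran from 2.24 (Emcn) to 3.38 (Sox17) for M_APC against M_DPP4_neg, where 33.1% were called higher. The size for Sox17 is imprecise, since the M_DPP4_neg libraries held 13, 9 and 3 reads of it.

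Between FIP and DPP4_pos cells the endothelial log2 differences ran from 1.06 (Pecam1) to 2.08 (Emcn) in females and from 2.35 (Pecam1) to 3.29 (Sox17) in males. The largest rest on few reads, 7, 6 and 4 of Emcn in F_DPP4_pos and 6, 12 and 6 of Sox17 in M_DPP4_pos. The share of all genes called higher was 22.1% in females and 32.6% in males. Emcn had 26.6, 24.7 and 23.9 normalised counts in F_FIP against 7.002, 5.85 and 3.31 in F_DPP4_pos. In males it had 63.3, 63.3 and 49.6 in M_FIP against 7.91, 5.77 and 8.81 in M_DPP4_pos. Within each sex every FIP library of this vein and capillary gene was above every DPP4_pos library.

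The depot differences were larger in males for part of the set. In the test of the difference between sexes, Cdh5 (1.44 ± 0.27, adjusted p = 0.000125), Pecam1 (1.35 ± 0.34, adjusted p = 0.00253) and Sox17 (1.42 ± 0.53, adjusted p = 0.0337) differed for APC against DPP4_neg, where 22.6% of all genes were called in that direction. Sox17 lost this call without F_APC replicate 1 or 2, F_DPP4_neg replicate 1, M_APC replicate 1 or 3, or M_DPP4_neg replicate 3, with adjusted p between 0.0556 and 0.128. For FIP against DPP4_pos, Cdh5 (1.51 ± 0.27), Cldn5 (1.44 ± 0.37), Pecam1 (1.29 ± 0.34) and Sox17 (1.76 ± 0.53) differed, with adjusted p between 0.000114 and 0.012 and 15.7% of all genes called. Emcn did not pass in either test (adjusted p = 0.296 and 0.164).

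FIP cells differed from APC cells in females. All 10 genes were lower in F_FIP than in F_APC, with no overlap in any of them, where 18.1% of all genes tested were called lower. Pecam1 fell from 263.3, 322.3 and 461.8 normalised counts in F_APC to 184.5, 156.1 and 153.3 in F_FIP, a log2 change of -1.05 ± 0.24 (adjusted p = 0.00114). Sox17 fell from 79.2, 92.8 and 147.9 to 42.4, 26.4 and 37.8, a change of -1.53 ± 0.38 (adjusted p = 0.00191). The endothelial changes ran from -1.03 (Cdh5) to -1.53 (Sox17), and the macrophage changes from -1.28 (Lyz2) to -2.58 (Ptprc).

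Among the macrophage genes Adgre1 stood at 13.9, 11.9 and 24.9 normalised counts in F_APC and at 1.66, 3.41 and 0.995 in F_FIP, -2.58 ± 0.47 (adjusted p = 8.21e-05). Csf1r stood at 53.5, 63.0 and 59.5 in F_APC and at 16.6, 14.50 and 21.9 in F_FIP, -1.69 ± 0.26 (adjusted p = 9.28e-06). F_FIP held the lowest mean of all 8 groups for each of the 5 macrophage genes. The call of Lyz2 (adjusted p = 0.00743) ended without F_APC replicate 3 (adjusted p = 0.0696), the shallowest library, which was also the highest of its group for the 5 endothelial genes together (1658 against 963.3 in the lowest).

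In males 0 of the 10 genes were called between M_FIP and M_APC, where 36.9% of all genes were called in either direction. None had an unadjusted p under 0.05 by limma, and edgeR and DESeq2 on the recovered reads called 0 as well. Cdh5 stood at 596.1, 637.7 and 474.5 normalised counts in M_FIP, on both sides of the M_APC values given above, with a log2 difference of 0.01 ± 0.19. The endothelial differences lay between -0.12 and 0.02. The 5 macrophage genes were all on the lower side in M_FIP, between -0.43 and -0.67, and the smallest adjusted p was 0.125 (Csf1r). Csf1r stood at 75.1, 105.5 and 86.0 in M_APC and at 62.4, 69.6 and 52.8 in M_FIP. The groups did not overlap for 3 of these 5 genes: Csf1r, Ptprc (lowest M_APC library 25.8, highest M_FIP library 24.97) and Lyz2 (157.8 and 155.2). How many of all genes did not overlap was not counted, so no result is drawn from this count. The count rose to 1 in 2 of the fits with a library left out (F_DPP4_neg replicate 3 or M_APC replicate 1).

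Tested directly, the drop from APC to FIP cells was smaller in males than in females, a positive male minus female difference of log2 changes, for Cdh5 (1.04 ± 0.27, adjusted p = 0.0124), Cldn5 (1.32 ± 0.37, adjusted p = 0.0199), Adgre1 (2.15 ± 0.66, adjusted p = 0.0359) and Csf1r (1.18 ± 0.37, adjusted p = 0.0391), where 5.46% of all genes were called in that direction. The other 6 genes pointed the same way with adjusted p between 0.0575 and 0.389. This count of 4 fell to 1 without F_APC replicate 3, F_FIP replicate 1 or M_FIP replicate 2, fell to 2 without F_FIP replicate 2 or M_APC replicate 1, and rose to 8 without F_APC replicate 1 and to 7 without F_DPP4_pos replicate 3. The difference for Cdh5 was called without each of the 24 libraries and under all 10 alternative fits. The other 3 calls were not: that of Adgre1 ended under 4 alternatives, edgeR among them (adjusted p = 0.0564), and without 6 libraries (at most 0.121, without M_APC replicate 1). That of Csf1r ended under 5 alternatives, edgeR among them (adjusted p = 0.0725), and without 8 libraries (at most 0.102, without F_FIP replicate 2), and that of Cldn5 without the mean-variance trend (0.0564) and without 4 libraries (at most 0.0681, without F_APC replicate 3).

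The male and female FIP cells stood apart. All 10 genes were higher in M_FIP than in F_FIP, without overlap, where 18.2% of all genes were called higher, and the count was 10 without each library in turn and under each alternative fit. Cldn5 had 636.7, 788.4 and 529.0 normalised counts in M_FIP against 124.6, 129.6 and 174.2 in F_FIP, 2.18 ± 0.26 (adjusted p = 2.96e-07). Ptprc had 19.8, 24.97 and 17.1 against 0, 2.56 and 4.98, 2.95 ± 0.47 (adjusted p = 2.09e-05). The other 8 differences ran from 1.19 ± 0.29 (Emcn) to 2.79 ± 0.47 (Adgre1).

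Between M_APC and F_APC 5 genes were higher in males, where 22.4% of all genes were called higher: Laptm5 (1.17 ± 0.31), Lyz2 (1.08 ± 0.37), Cldn5 (0.86 ± 0.26), Pecam1 (0.64 ± 0.24) and Cdh5 (0.59 ± 0.19), with adjusted p between 0.00358 and 0.0337. Emcn (-0.02 ± 0.29) and Sox17 (-0.18 ± 0.38) showed no call and overlapped. The count fell to 1 without F_APC replicate 1, to 3 without M_APC replicate 2 and to 2 without M_APC replicate 3.

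The order of the group means was close to the same in all 5 endothelial genes. M_APC, M_FIP and F_APC held the upper places, F_FIP the fourth, and inguinal groups the rest, except that Cldn5 was as high in M_DPP4_neg (142.7 ± 78.5, SD, n = 3) as in F_FIP (142.8 ± 27.3). M_APC and M_FIP overlapped in each gene. The ratio of the group means of Cdh5 and Pecam1 lay between 0.831 (M_DPP4_pos) and 1.13 (M_FIP). In single libraries it lay between 0.619 (M_DPP4_neg) and 1.29 (F_DPP4_pos). The ratio of the means of Cldn5 and Pecam1 ranged more widely, from 0.676 (F_DPP4_neg) to 1.48 (M_DPP4_neg). The 3 M_DPP4_neg libraries were widely spread for Cldn5, at 225.3, 133.8 and 69.1.

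**Figure D2:**
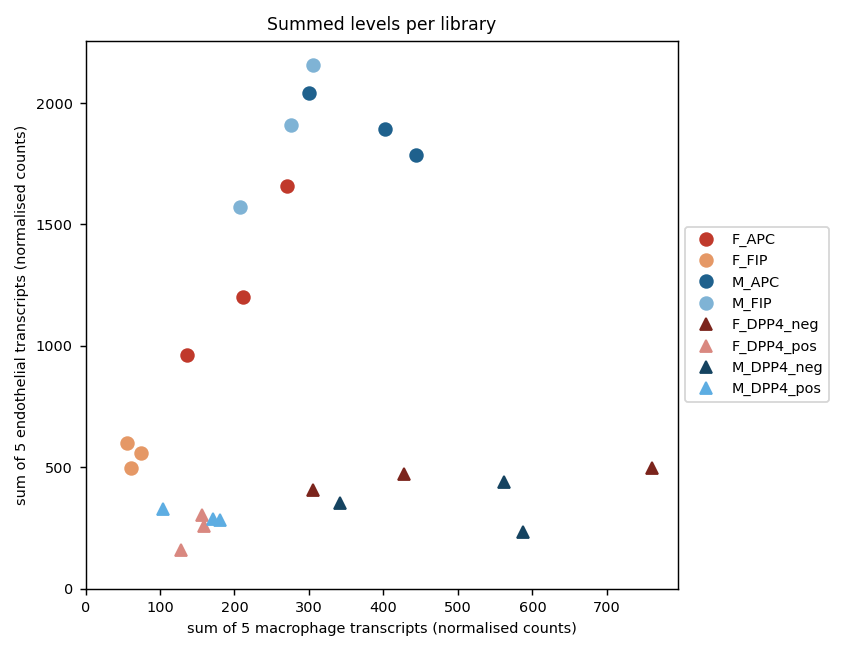
Each point is 1 library, with the sum of the normalised counts of the 5 macrophage genes on the horizontal axis and of the 5 endothelial genes on the vertical axis; circles are gonadal and triangles inguinal groups. The M_APC and M_FIP libraries lie between 1571 and 2157 on the endothelial axis and all inguinal libraries below 500, while the DPP4_neg libraries reach from 304.9 to 760.5 on the macrophage axis.

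The leukocyte genes Ptprc, Laptm5 and Lyz2 followed another pattern and were highest in the inguinal DPP4_neg cells of both sexes. Laptm5 stood at 68.3, 62.7 and 104.9 normalised counts in F_DPP4_neg and at 91.3, 61.3 and 99.9 in M_DPP4_neg, above every library of the other 6 groups. In DPP4_pos cells it stood at 22.0, 22.4 and 11.6 in females and at 18.1, 27.7 and 16.5 in males. Lyz2 stood at 199.4, 134.7 and 391.4 in F_DPP4_neg and at 327.8, 147.1 and 309.5 in M_DPP4_neg, and in DPP4_pos cells at 63.0, 79.0 and 58.7 in females and 53.1, 41.5 and 19.8 in males. The DPP4_neg groups were spread widely, and F_DPP4_neg replicate 3 was the highest library of all for the 5 macrophage genes together (760.5 against 304.9 in the lowest of its group).

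In females all 10 genes were lower in DPP4_pos than in DPP4_neg cells, without overlap, where 27.1% of all genes were called lower. In males 4 were lower, where 25.3% were called lower: Lyz2 (-2.77 ± 0.37, adjusted p = 7.33e-07), Laptm5 (-1.97 ± 0.31, adjusted p = 8.28e-06), Ptprc (-1.34 ± 0.47, adjusted p = 0.0205) and Emcn (-0.70 ± 0.29, adjusted p = 0.0462). The male values of Emcn overlapped (16.2, 14.3 and 8.63 in DPP4_neg against 7.91, 5.77 and 8.81 in DPP4_pos), and 7 of 10 alternative fits ended its call, as did leaving out any of 12 libraries (at most 0.172, without M_DPP4_pos replicate 2). Ptprc in males lost its call without M_DPP4_neg replicate 3 (adjusted p = 0.102) or M_DPP4_pos replicate 3 (adjusted p = 0.147), and Ptprc in females (adjusted p = 0.0437) without F_DPP4_neg replicate 1 or 3, any F_DPP4_pos replicate or M_FIP replicate 1, with adjusted p between 0.0502 and 0.139. Sox17 in females (-1.09 ± 0.38, adjusted p = 0.0185) lost its call without F_DPP4_neg replicate 1 (adjusted p = 0.0785) or F_DPP4_pos replicate 3 (adjusted p = 0.17). The female call of Cldn5 ended only under quantile normalization (adjusted p = 0.0887). Quantile normalization also ended the calls of Sox17 (0.303) and Ptprc (0.182) in females and of Ptprc in males (0.0519). In females Sox17 also ended with only the groups compared (0.0541). Ptprc in females also ended with a pseudocount of 0.5 (0.0848), without the filter (0.0786) and without the mean-variance trend (0.0726).

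The 2 sexes differed in this contrast for 3 genes, where 16.4% of all genes were called in that direction: Cdh5 (0.97 ± 0.27, adjusted p = 0.00825), Csf1r (1.14 ± 0.37, adjusted p = 0.0215) and Pecam1 (1.02 ± 0.34, adjusted p = 0.0265). The male groups of Pecam1 overlapped, at 114.7, 94.97 and 80.2 in M_DPP4_neg and 102.9, 85.4 and 106.8 in M_DPP4_pos, while the female groups stood at 160.5, 129.2 and 184.1 and at 115, 98.5 and 42.1. The difference for Laptm5 was 0.06 ± 0.44 (adjusted p = 0.935). The call of Csf1r ended without F_DPP4_neg replicate 3 (adjusted p = 0.0796) or M_DPP4_pos replicate 2 (0.0583). That of Pecam1 ended without F_DPP4_neg replicate 3, F_DPP4_pos replicate 3, M_DPP4_neg replicate 3 or M_DPP4_pos replicate 1 or 3, with adjusted p between 0.0511 and 0.0952, and the count rose to 6 without F_DPP4_pos replicate 1 or M_DPP4_neg replicate 1.

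Against the gonadal cells the same 3 leukocyte genes were on the inguinal side in females. Laptm5 (-1.87 ± 0.31), Ptprc (-1.72 ± 0.47) and Lyz2 (-1.35 ± 0.37) were lower in F_APC than in F_DPP4_neg, with adjusted p between 1.39e-05 and 0.0031, where 32.2% of all genes were called lower. In males only Laptm5 was called lower in M_APC (-0.81 ± 0.31, adjusted p = 0.0256), where 33.0% were, and its call ended without M_APC replicate 1 (adjusted p = 0.205), M_DPP4_neg replicate 1 (0.0726) or M_DPP4_neg replicate 3 (0.101). All 5 macrophage genes were lower in F_FIP than in F_DPP4_pos, where 22.6% were called lower. That count included Lyz2 (adjusted p = 0.0448) and Csf1r (adjusted p = 0.0335), which edgeR and DESeq2 on the recovered reads did not call, and Adgre1, whose groups overlapped and whose call ended without F_DPP4_pos replicate 1 (adjusted p = 0.0533). In males Lyz2 (1.83 ± 0.37) and Adgre1 (1.78 ± 0.47) were higher in M_FIP than in M_DPP4_pos, where 32.6% of all genes were called higher. Ptprc, Laptm5 and Csf1r did not pass. In the test of the difference between sexes for FIP against DPP4_pos, Adgre1 (3.48 ± 0.66), Ptprc (2.85 ± 0.67), Lyz2 (2.76 ± 0.53) and Laptm5 (1.80 ± 0.44) differed, with adjusted p between 0.000228 and 0.00257. There 15.7% of all genes were called in that direction.

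**Figure D3:**
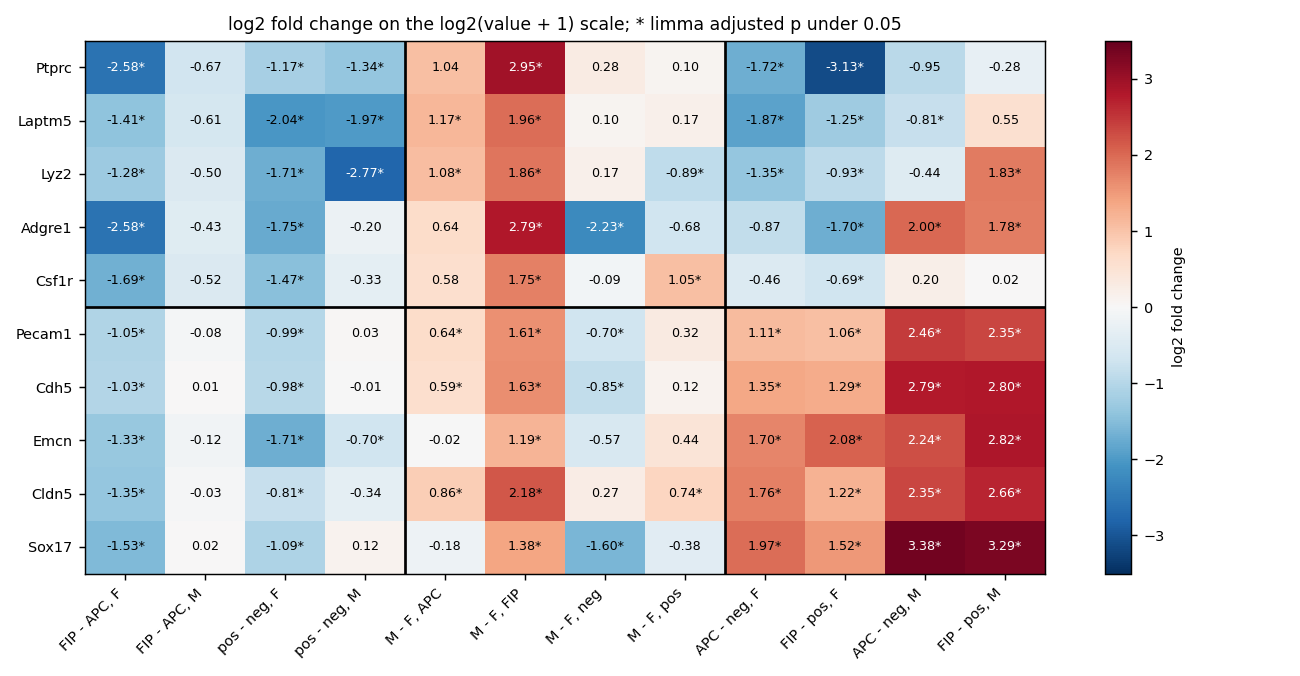
Log2 fold changes of the 10 genes (rows) in 12 comparisons (columns; "FIP - APC, F" is F_FIP minus F_APC), with red for higher and blue for lower in the first-named group and an asterisk for an adjusted p under 0.05 in limma. The columns FIP - APC in females and M - F in FIP are called in all 10 rows, and FIP - APC in males in none.

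Adgre1 parted from the other leukocyte genes in male DPP4_neg cells. It stood at 27.0, 20.9 and 48.7 normalised counts in F_DPP4_neg but at 7.10, 5.11 and 4.93 in M_DPP4_neg, a log2 difference of -2.23 ± 0.47 (adjusted p = 0.000248). Ptprc (0.28 ± 0.47), Lyz2 (0.17 ± 0.37), Laptm5 (0.10 ± 0.31) and Csf1r (-0.09 ± 0.26) did not pass between these groups, with adjusted p of 0.64 or more. In that comparison 4 of the 10 genes were lower in males, where 30.3% of all genes were: Adgre1, Sox17 (-1.60 ± 0.38), Cdh5 (-0.85 ± 0.19) and Pecam1 (-0.70 ± 0.24), the last ending without F_DPP4_neg replicate 3 (adjusted p = 0.0729) or M_DPP4_neg replicate 3 (adjusted p = 0.0749). The ratio of Adgre1 to Ptprc normalised counts was 0.0832 in M_DPP4_neg (0.0513 to 0.122 over the libraries) and 0.588 in F_DPP4_neg (0.472 to 0.720). In DPP4_pos cells it was 0.179 in males (0.0968 to 0.417) and 0.430 in females (0.129 to 0.818). In gonadal cells it was 1 in F_APC (0.714 to 1.56), 0.829 in M_APC (0.5 to 1.12) and 0.938 in M_FIP (0.762 to 1.04). The library ranges of M_APC and F_DPP4_neg overlapped. The F_FIP ratio of 0.805 rests on 7 reads of Adgre1 and 8 of Ptprc and has no library range, since 1 library had 0 reads of Ptprc. Between M_DPP4_pos and F_DPP4_pos Adgre1 overlapped and did not pass (-0.68 ± 0.47, adjusted p = 0.229). Adgre1 was also higher in M_APC than in M_DPP4_neg (2.004 ± 0.47, adjusted p = 0.000574), where the M_DPP4_neg libraries held 7, 5 and 4 reads. The female value had the opposite sign (-0.87 ± 0.47) but was not called (adjusted p = 0.112), and the female groups overlapped. The difference between sexes for Adgre1 in APC against DPP4_neg was 2.88 ± 0.66 (adjusted p = 0.00104). Among the 5 members, the macrophage label in male DPP4_neg cells thus rests on Csf1r and on 3 genes that other leukocytes also carry. Csf1r is itself uncertain, for a reason given below, so the set is named there by its genes.

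Of 22 other macrophage and myeloid genes, 18 were tested, and in M_DPP4_neg against F_DPP4_neg 8 were lower and 0 higher, beside 30.3% of all genes lower and 27.1% higher. The 8 were the complement genes C1qa, C1qb and C1qc, the scavenger and mannose receptor genes Cd163 and Mrc1, the folate receptor gene Folr2, the coagulation factor gene F13a1 and the chemokine gene Pf4, all transcripts of resident tissue macrophages. Cd163 fell by 4.16 ± 0.45 on the log2 scale (108.0 ± 53.3 normalised counts in F_DPP4_neg against 4.77 ± 1.59 in M_DPP4_neg, adjusted p = 2.56e-08), and C1qa by 2.74 ± 0.47 (104.0 ± 52.1 against 14.2 ± 7.10, adjusted p = 2.26e-05). The count was 8 without each library in turn. F13a1 fell from 153.8 ± 62.7 to 15.9 ± 3.31. The lower male level was not particular to DPP4_neg cells. All of these genes except Pf4 were also lower in M_DPP4_pos than in F_DPP4_pos, where 25.5% of all genes were called lower. F13a1 stood there at 9.42 ± 3.67 in males and 64.1 ± 21.1 in females. Cd68, a lysosomal glycoprotein gene of macrophages, and Mpeg1, a pore-forming protein gene, were not called, at 55.1 ± 15.97 against 47.8 ± 8.14 and 108.6 ± 26.9 against 119.5 ± 6.87.

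Granulocyte genes moved in the same comparison, in which 57.4% of all genes were called in either direction. Of 11 neutrophil and mast cell genes 8 were tested and all 8 called: the neutrophil genes S100a8, S100a9 and Csf3r were higher in M_DPP4_neg, and the mast cell genes Cpa3, Mcpt4, Cma1, Tpsb2 and Fcer1a were lower. S100a9, a calprotectin subunit, stood at 671.5 ± 363.3 normalised counts in M_DPP4_neg (261.4 to 952.9) and 90.2 ± 91.0 in F_DPP4_neg (17.8 to 192.4), 3.27 ± 0.81 (adjusted p = 0.00127). Mcpt4, a mast cell protease, stood at 83.7 ± 42.9 and 564.9 ± 36.8. The summed level of the 11 genes was 587.2 to 2002 in M_DPP4_neg, 1638 to 2274 in F_DPP4_neg, 135.2 to 340.8 in M_APC and at most 30.4 in every other library, and no gene of the list was at 0 in either DPP4_neg group. The 9 epithelial genes, keratins and claudins among them, summed to 7956 to 19120 in F_DPP4_neg and 13.6 to 28.6 in M_DPP4_neg. The part of these cells in the Ptprc, Laptm5 and Lyz2 levels was not tested.

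**Figure D4:**
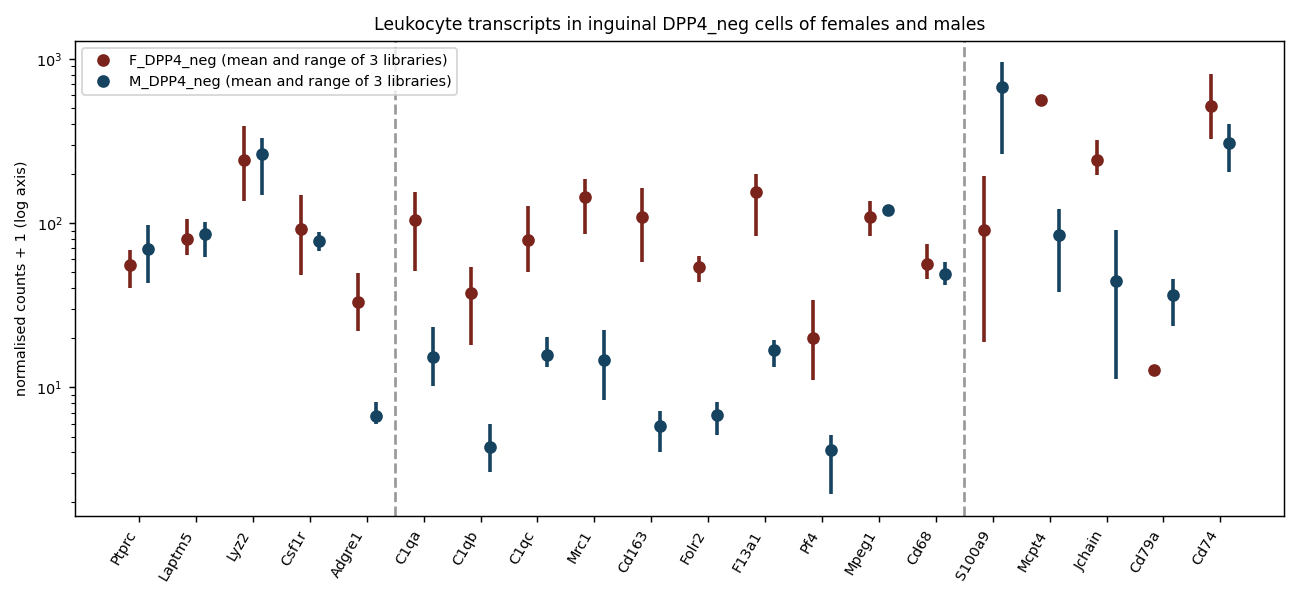
Normalised counts plus 1 (log axis) in F_DPP4_neg and M_DPP4_neg for the 5 macrophage members, 10 other macrophage genes and 5 genes of other leukocytes, parted by dashed lines; points are means and bars the range of 3 libraries. The ranges overlap for Ptprc, Laptm5, Lyz2 and Csf1r, and lie apart for Adgre1 and for C1qa to Pf4.

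Csf1r was the other exception. It lies on chromosome 18 (61105572 to 61131139, plus strand) and was the only 1 of the 5 macrophage genes called higher in M_DPP4_pos than in F_DPP4_pos, at 62.2, 71.5 and 49.6 normalised counts against 31.0, 26.3 and 28.9 (1.05 ± 0.26, adjusted p = 0.00146). Between these groups Cldn5 was also higher (0.74 ± 0.26, adjusted p = 0.0192) and Lyz2 lower (-0.89 ± 0.37, adjusted p = 0.047), where 27.1% of all genes were called higher and 25.5% lower. The call of Lyz2 ended in 7 of 10 alternative fits and without any of 14 libraries (at most 0.307, without M_DPP4_pos replicate 3), and that of Cldn5 without F_DPP4_pos replicate 2, F_DPP4_pos replicate 3 or M_DPP4_pos replicate 2, with adjusted p between 0.0578 and 0.0705. Of the other macrophage genes tested, 9 were lower in M_DPP4_pos than in F_DPP4_pos, 8 to 11 with a library left out, beside 25.5% of all genes. They were C1qa, C1qb, C1qc, Mrc1, Cd163, Itgam, Folr2, F13a1 and Trem2. Only Cd68 and Mpeg1 were higher, so most called genes of that list went against Csf1r. Csf1r made up 41.1% of the summed macrophage counts in M_DPP4_pos and 16.8% to 30.3% in the other groups. The gene overlaps Hmgxb3 on the opposite strand, with 14.3% of its 50-base stretches shared. Hmgxb3 stood at 760.7 ± 29.5 in M_DPP4_pos, 651.8 ± 16.9 in F_DPP4_pos and 765.3 ± 53.8 in F_DPP4_neg. No strand setting of the counting is given in the sources used here, so reads of the overlap cannot be told apart, and Csf1r is uncertain for that reason. Lyz2 shares 15.4% of such stretches with its neighbour Lyz1, which lay between 0 and 16.6 normalised counts in the 24 libraries. Sox17 shares 15.0% with an overlapping gene model that was not analysed here.

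The other macrophage genes were counted in most of the same contrasts, with the share of all genes called in that direction beside the main counts. In F_FIP against F_APC 13 of the 18 tested were lower (18.1% of all genes) and 1, the chemokine receptor gene Cx3cr1, was higher, with a median log2 change of -1.58 against 0.00 for all genes. In M_FIP against M_APC 4 of the 18 were lower (2614 of 14517 genes) and 0 higher. These were Cd68, Mpeg1, Fcer1g and Folr2, and 1 was lower without M_APC replicate 3. In M_FIP against F_FIP 13 were higher (18.2% of all genes) and 0 lower, and 9 were higher without F_FIP replicate 2. In DPP4_pos against DPP4_neg 14 were lower in females (27.1% of all genes), or 10 without F_DPP4_neg replicate 3. In males 7 of the 18 were lower, nearer to the 25.3% of all genes that were. Mpeg1 was the exception in males, at 238.0 ± 14.1 in M_DPP4_pos against 119.5 ± 6.87 in M_DPP4_neg (0.99 ± 0.27, adjusted p = 0.00344). Between depots 14 were lower in F_APC than in F_DPP4_neg (32.2% of all genes), or 7 without F_DPP4_neg replicate 3, and 2 higher. In M_APC against M_DPP4_neg 9 were higher (33.1%) and 4 lower. In F_FIP against F_DPP4_pos 12 were lower (22.6%), or 8 without F_DPP4_pos replicate 1, and 2 higher. In M_FIP against M_DPP4_pos 14 were higher (32.6%) and 3 lower. The lowest group of the series for the summed 22 genes was F_FIP (162.9 to 217.0), as it was for the 5 members.

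Among 18 other blood endothelial genes, all tested, 12 were lower and 2 higher in F_FIP than in F_APC, where 18.1% of all genes were lower. In M_APC against M_DPP4_neg 16 were higher and 0 lower, where 33.1% of all genes were higher, and in M_FIP against F_FIP 15 were higher and 0 lower, where 18.2% were higher. Ptprb, the endothelial phosphatase VE-PTP, stood at 543.2 ± 167.2 in F_APC, 246.6 ± 29.3 in F_FIP, 603.9 ± 122.9 in M_APC and 614.4 ± 72.9 in M_FIP, and between 47.0 and 135.9 in the inguinal groups. In M_FIP against M_APC, where 36.9% of all genes were called in either direction, 3 were called: Tek and Ecscr higher and Plvap lower.

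Tek, Kdr and Ecscr, also listed as endothelial, went with the 5 members in some comparisons and against them in others. Tek and Kdr were higher in APC than in DPP4_neg cells in both sexes, as the members were (Tek 0.56 ± 0.12 and 1.32 ± 0.12, Kdr 0.59 ± 0.22 and 3.28 ± 0.22, females and males). Kdr was also higher in M_FIP than in M_DPP4_pos (1.90 ± 0.22) but lower in F_FIP than in F_DPP4_pos (-2.39 ± 0.22), and Ecscr was higher in M_FIP than in F_FIP (0.85 ± 0.32, adjusted p = 0.0368). On the other side Tek, the angiopoietin receptor TIE2, was higher in FIP than in APC cells in both sexes (1.46 ± 0.12 in females, 1.30 ± 0.12 in males) and in DPP4_pos than in DPP4_neg cells (2.03 ± 0.12 and 2.55 ± 0.12), with adjusted p between 6.78e-15 and 4.65e-09. Its mean was 4876 ± 319 in F_FIP, where Pecam1 was 164.6 ± 17.3, and 1776 ± 91.0 in F_APC. Kdr, the VEGF receptor 2 gene, stood at 1509 ± 99.1 in F_DPP4_pos, 27.2 ± 7.63 in M_DPP4_neg and 92.7 ± 13.2 in M_DPP4_pos. Ecscr, an endothelial chemotaxis gene, rose in FIP against APC cells and in DPP4_pos against DPP4_neg cells in both sexes, by 1.35 to 2.76.

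**Figure D5:**
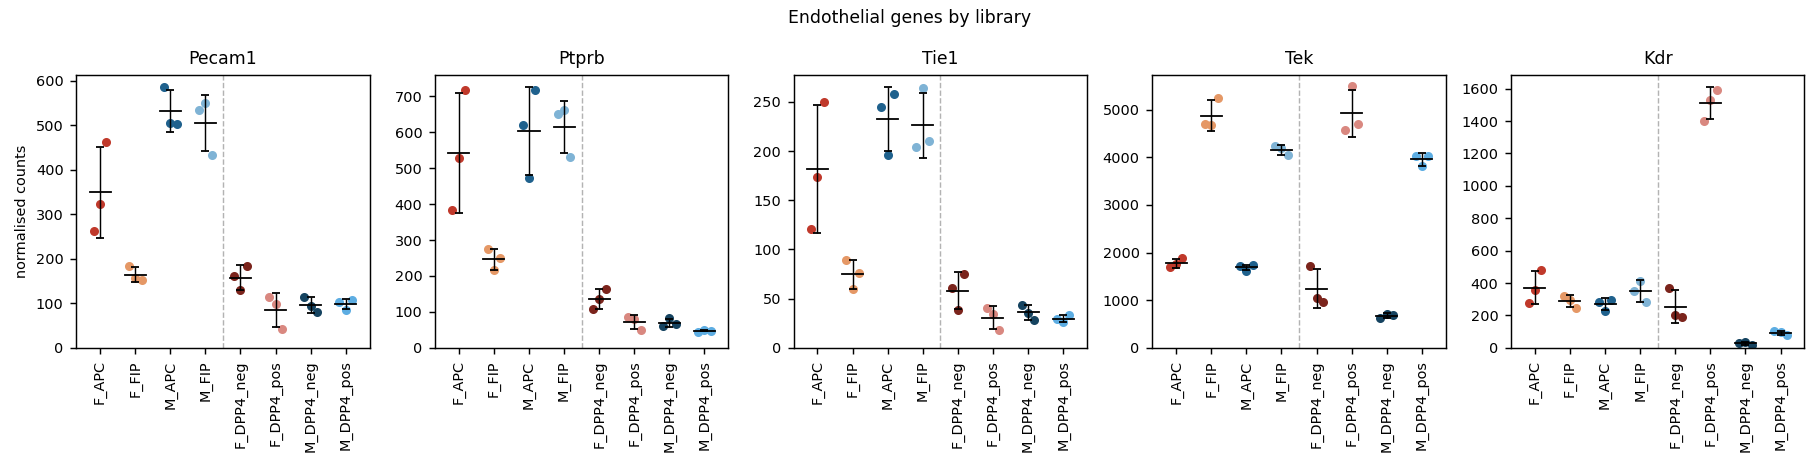
Normalised counts (vertical axis, linear from 0) of Pecam1 and 4 other endothelial genes in the 8 groups, with 3 libraries as points, their mean and 1 SD; the dashed line parts gonadal from inguinal groups. Ptprb and Tie1 are high in the same 3 gonadal groups as Pecam1, whereas Tek is high in F_FIP, M_FIP and both DPP4_pos groups, and Kdr in F_DPP4_pos.

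Mural cells are the PDGFRb+ neighbours of endothelium, and their genes moved with the endothelial genes in part. Of 9 mural genes 8 were lower in F_FIP than in F_APC (18.1% of all genes) and 6 were higher in M_FIP than in F_FIP (18.2%). In M_FIP against M_APC, where the endothelial members did not pass, 5 were lower, beside 2614 of the 14517 genes tested. Notch3, a Notch receptor of mural cells, stood at 1079 ± 258 in F_APC, 195.4 ± 13.4 in F_FIP, 1175 ± 152 in M_APC and 352.1 ± 37.1 in M_FIP. Summed over the 9 genes, F_APC libraries held 2454 to 2943, F_FIP libraries 959.5 to 991.2, M_APC libraries 3524 to 4236 and M_FIP libraries 2033 to 2272, with no gene at 0. The 7 mesothelial genes, listed since gonadal fat bears a mesothelium, summed to 862.1 to 1081 in F_APC libraries, 215.8 to 279.7 in F_FIP libraries, 252.7 to 411.0 in M_APC libraries, 313.6 to 449.7 in M_FIP libraries, and at most 28.6 in the inguinal libraries. All 7 were lower in F_FIP than in F_APC (18.1% of all genes). In males 0 were called in this contrast, where 36.9% of all genes were called in either direction. The 6 adipocyte genes were likewise all lower in F_FIP than in F_APC (18.1% of all genes). All 6 were higher in M_FIP than in F_FIP (18.2%), and 5 were lower in M_FIP than in M_APC (2614 of the 14517 genes). They summed to 1274 to 1477 in F_APC libraries, 127.4 to 159.5 in F_FIP libraries, 869.3 to 1111 in M_APC libraries and 329.7 to 388.9 in M_FIP libraries, with no gene at 0. Plin1, a lipid droplet coat protein gene, stood at 518.4 ± 77.0 in F_APC and 31.3 ± 11.7 in F_FIP. The part of mural, mesothelial and adipocyte cells in the differences of the 10 genes was not tested.

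Of the other leukocyte and blood lists, the 8 dendritic cell and MHC class II genes summed to 309.6 to 341.4 in F_FIP libraries and to 1117 to 2283 in F_DPP4_neg libraries, the lowest and highest groups by mean. Of the 5 tested, 3 were lower (18.1% of all genes) and 1 higher (3091 of 14517 genes) in F_FIP than in F_APC. In M_FIP against F_FIP 4 were higher (18.2% of all genes). The 8 red cell and platelet genes summed to 167.3 to 644.1. The 9 T and NK cell genes summed to at most 77.7 normalised counts in a library, with Cd3e, Cd3d and Cd3g at 0 in F_FIP. The 8 B cell genes summed to at most 409.6, with Jchain at 241.8 ± 67.3 in F_DPP4_neg and 3.02 ± 2.37 in M_APC. The 4 lymphatic endothelial genes summed to between 22.6 and 115.4.

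By likeness across the 24 libraries, given as a description, the genes closest to the mean of the 5 endothelial members were Tie1 (Pearson r = 0.992), Aqp1 (0.985), Dll4 (0.981), Adgrl4 (0.977) and Ablim3 (0.975), then Cd93 (0.974), Flt1 (0.971), Tmem252 (0.971), Gpihbp1 (0.97) and Apold1 (0.97). Those closest to the mean of the 5 macrophage members were Cd74 (0.943), H2-Aa (0.938), Cd53 (0.923), H2-Ab1 (0.917) and Ctss (0.913), then Lilrb4a (0.903), Tnf (0.891), Tmem8 (0.89), Nckap1l (0.89) and H2-Eb1 (0.883). The points share groups, sexes and libraries. Within groups, by deviations from the group mean, Tie1 again led the endothelial set (0.885) and H2-Eb1 the macrophage set (0.877), followed by Gimap6 (0.881), Tmem252 (0.859), Apold1 (0.826) and Flt4 (0.81) for the former and Coro1a (0.866), Decr2 (0.855), Cd74 (0.84) and H2-Ab1 (0.817) for the latter. Of the members, Pecam1 followed the mean of its other 4 most closely (0.979) and Adgre1 least (0.638). Cd74, the invariant chain of MHC class II, stood at 514.2 ± 259.6 normalised counts in F_DPP4_neg, 399.5 ± 112.8 in M_APC, 306.3 ± 98.2 in M_DPP4_neg and 68.0 ± 8.52 in F_FIP.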

How the data were processed

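Gene expression was measured by bulk RNA-seq in 24 libraries, 3 in each of 8 groups taken from the sample titles. HISAT2 2.0.1 and featureCounts 1.4.6, with DESeq2 1.6.3 and Trim Galore 0.4.1, are named in the submitters' processing notes, with the build GRCm38 (mm10). The annotation and strand setting are not given in the sources used here. Values as deposited are a normalized signal per gene, made by the authors as reads divided by 1 size factor per library; dividing by that step gave whole reads for 100% of values (within 0.01 read), which recovers the counts. Rows with no gene symbol held up to 0.0765% of the reads.

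Tests used log2(value + 1). The 14517 genes reaching 10 in 3 or more libraries were kept, and limma 3.58.1 (R 4.3.3) was fitted over all 24 libraries with a mean-variance trend, for 12 comparisons of groups and 4 differences of these between the sexes, with Benjamini-Hochberg adjustment. The fit was tested on simulated data. RPKM used exon lengths of GENCODE gene models on GRCm38. Alternatives were pseudocounts of 5 and 0.5, no filter, TMM scaling, quantile normalization, edgeR 4.0.16 and DESeq2 1.42.0 on the recovered reads, no trend, only the groups compared, a replicate block, and each library left out. Leaving libraries out for the wider gene lists was added after seeing the data. The members and gene lists were chosen with earlier results of these data known. By rule the text names the members, from each wider list the 3 (macrophage, endothelial) or 2 genes highest by mean value, and the 10 (over libraries) or 5 (within groups) genes most like each member set. Others are whole sets of called genes, or, for Cd163, C1qa, Ecscr, Tie1 and Cx3cr1, genes chosen after their values were seen. Libraries of a group correlated with r of 0.982 to 0.992, and no pair agreed within sampling noise.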

Additional observations from a re-analysis of the deposited data

Results flagged for a closer look

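In 4 comparisons the male and female effects differed by a limma test of the difference itself (adjusted p under 0.05), which flagged 19 results over the 10 genes; values are male minus female differences of log2 fold changes, all positive. For gonadal APC against inguinal DPP4_neg cells they were Adgre1 2.88, Cdh5 1.44, Sox17 1.42 and Pecam1 1.35. For FIP against APC cells they were Adgre1 2.15, Cldn5 1.32, Csf1r 1.18 and Cdh5 1.04. For FIP against DPP4_pos cells they were Adgre1 3.48, Ptprc 2.85, Lyz2 2.76, Laptm5 1.80, Sox17 1.76, Cdh5 1.51, Cldn5 1.44 and Pecam1 1.29. For DPP4_pos against DPP4_neg cells they were Csf1r 1.14, Pecam1 1.02 and Cdh5 0.97. Cdh5 is the member flagged in all 4, and Emcn in 0. Their causes were not tested.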

How the results depend on the processing

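Of 97 called member results, 78 kept their direction and call under all 10 alternative fits, 75 without each library in turn and 74 under both, and none reversed. The counts kept per alternative were 97 with TMM scaling, 96 with a pseudocount of 0.5, 94 with the replicate block, 92 with a pseudocount of 5, DESeq2 or only the groups compared, 89 with edgeR, 88 without the filter or without the trend, and 86 with quantile normalization. The replicate block, a pairing by number, ended Emcn in M_DPP4_pos against M_DPP4_neg (adjusted p = 0.0565), Lyz2 in M_DPP4_pos against F_DPP4_pos (0.0568) and Lyz2 in F_FIP against F_DPP4_pos (0.0546). Deviations of same-numbered libraries correlated with r between -0.173 and 0.201 over 84 pairs (4 over 0.1). These pairs mixed sexes and depots, so they cannot tell whether the numbers pair libraries within a sex and depot. Counts of called genes that moved by over 1.5 times were as follows, and the cause was not tested. Fitting only the groups compared gave 1 for M_FIP against M_APC, 7 for the sex difference in FIP against APC and 1 for that in DPP4_pos against DPP4_neg. Quantile normalization gave 2 for M_DPP4_pos against M_DPP4_neg and 1 for the sex difference in DPP4_pos against DPP4_neg. The sex difference in FIP against APC also gave 2 without the filter, 7 with DESeq2 and 1 without the trend. M_DPP4_pos against F_DPP4_pos gave 1 with edgeR, and 1 without F_DPP4_pos replicate 2 or M_DPP4_pos replicate 2.

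With a library left out, the counts ranged from 9 to 10 (F_FIP against F_APC), 0 to 1 (M_FIP against M_APC), 8 to 10 and 3 to 4 (DPP4_pos against DPP4_neg, females and males), 1 to 6 (M_APC against F_APC), 10 to 10 (M_FIP against F_FIP), 3 to 4 (M_DPP4_neg against F_DPP4_neg), 1 to 3 (M_DPP4_pos against F_DPP4_pos), 8 to 9 and 6 to 8 (APC against DPP4_neg), and 7 to 10 and 7 to 7 (FIP against DPP4_pos). For the differences between sexes they ranged from 1 to 8 (FIP against APC), 2 to 6 (DPP4_pos against DPP4_neg), 3 to 6 (APC against DPP4_neg) and 8 to 8 (FIP against DPP4_pos). Quantile normalization moved the median log2 difference of all genes for F_APC against F_DPP4_neg from -0.02 to 0.11, and calls from 3888 higher and 4681 lower to 5241 and 4023. Depth limits Ptprc and Adgre1 most, with 0 to 82 reads of Ptprc in a library. It also limits Emcn and Sox17, with 4 and 3 reads in their lowest libraries.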
